A study of Mus musculus with 36 samples.

Results

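The RNA of 10 circadian clock genes was followed in 36 libraries of primary mouse cells: the activators Clock and Arntl (also named Bmal1), the repressors Per1, Per2, Per3, Cry1 and Cry2, the nuclear receptors Nr1d1 and Nr1d2 (REV-ERBα and REV-ERBβ), and the output factor Dbp. They were chosen by symbol as the core genes of the clock, 10 of the 54347 genes in the table, and all 10 passed the filter on low counts. Adipocytes, macrophages, myotubes and hepatocytes each received PBS (control), 5 mM β-hydroxybutyrate (βOHB) or 5 mM butyrate for 6 h, with 3 libraries for each of the 12 groups. The source names of the butyrate samples add the abbreviation of βOHB to butyric acid, while their titles and treatment labels name butyric acid alone, and the titles and treatment labels were followed. βOHB is the main circulating ketone body of the fasted state and has the carbon skeleton of butyrate with a hydroxyl group added. Butyrate is a short-chain fatty acid of bacterial fermentation and a known inhibitor of histone deacetylases (HDACs).

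All cells came from male C57Bl/6 mice (C57BL/6NHsd for the hepatocytes). Adipocytes were differentiated from the stromal vascular cells of inguinal fat pooled over mice, macrophages were grown from bone marrow in medium conditioned by L929 cells, myotubes were fused from hindlimb myoblasts, and hepatocytes were isolated by collagenase perfusion. Dexamethasone, which is known to reset the clocks of cultured cells, was part of the adipocyte differentiation cocktail and of the hepatocyte plating medium, after which hepatocytes were kept overnight without it. Neither a synchronisation of the cultures nor the hour of harvest was given in the sources used here, and 1 time point cannot tell a change in level from a shift of phase. The labels do not say whether the libraries of a group came from separate animals or cultures, so the p-values measure only the spread between these libraries. In bulk RNA, fewer cells of a type and less RNA per cell cannot be told apart.

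In the molecular clock, CLOCK and ARNTL bind E-boxes as a pair and switch on the Per and Cry genes, whose proteins gather, enter the nucleus and silence that pair. In a second loop, the REV-ERBs, themselves E-box targets, repress Arntl through RORE sites that the ROR receptors activate. DBP, another E-box target, acts on D-boxes and passes the rhythm to metabolic genes.

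The members lie on chromosomes 1 (Per2), 2 (Cry2), 4 (Per3), 5 (Clock), 7 (Arntl and Dbp), 10 (Cry1), 11 (Per1 and Nr1d1) and 14 (Nr1d2). The upstream sequences of Arntl, Cry1, Cry2 and Nr1d2, which moved the same way in at least 3 cell types under butyrate, are shown because E-boxes, RORE sites and D-boxes are the elements through which clock proteins act on one another. Each is the 250 bases before a RefSeq start site (build GRCm38.p6), 5′ to 3′ on the gene's strand, with motif matches in capitals. Arntl and Cry2 rose in all 4 cell types, Cry1 rose in 3, and Nr1d2 fell in all 4. Dbp, which fell in 3, is not printed because 159 bases of its window lie in an exon of the GENCODE M21 annotation. The printed windows of Nr1d2 and Cry1 hold 21 and 10 such bases, and those of Arntl and Cry2 hold 0.
Arntl (chr7:113207215-113207464, + strand): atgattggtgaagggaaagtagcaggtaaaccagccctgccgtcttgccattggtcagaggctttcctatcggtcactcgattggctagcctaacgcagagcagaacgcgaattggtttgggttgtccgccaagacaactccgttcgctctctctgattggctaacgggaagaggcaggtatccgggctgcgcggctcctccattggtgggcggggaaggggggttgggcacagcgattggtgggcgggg
Cry1 (chr10:85185055-85185304, - strand): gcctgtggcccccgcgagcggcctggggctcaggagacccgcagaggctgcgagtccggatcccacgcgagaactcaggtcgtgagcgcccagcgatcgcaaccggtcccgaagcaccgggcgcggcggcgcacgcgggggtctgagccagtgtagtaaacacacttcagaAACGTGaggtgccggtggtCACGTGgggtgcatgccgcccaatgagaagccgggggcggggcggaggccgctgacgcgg
Cry2 (chr2:92434070-92434319, - strand): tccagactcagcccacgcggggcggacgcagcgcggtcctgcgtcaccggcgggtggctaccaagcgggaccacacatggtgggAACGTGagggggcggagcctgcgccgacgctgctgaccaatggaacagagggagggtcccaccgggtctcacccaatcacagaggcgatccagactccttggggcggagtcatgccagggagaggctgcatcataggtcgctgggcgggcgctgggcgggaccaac
Nr1d2 (chr14:18239107-18239356, - strand): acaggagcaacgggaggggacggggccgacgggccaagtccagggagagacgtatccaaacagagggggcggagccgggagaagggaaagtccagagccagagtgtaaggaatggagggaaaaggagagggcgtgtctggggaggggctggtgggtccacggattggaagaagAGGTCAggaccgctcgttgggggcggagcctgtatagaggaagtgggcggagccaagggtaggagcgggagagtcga

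Both strands were searched for the E-box CACGTG, the related E′-box CACGTT, the half-site AGGTCA of a RORE, the D-box TTATGNAA and the cyclic AMP element TGACGTCA, which occurred in 6.02%, 3.85%, 14.0%, 3.07% and 1.55% of the 32851 upstream windows of this length in the RefSeq table. The Cry1 window held an E-box 60 bases and an E′-box 79 bases before the start site. The Cry2 window held an E′-box and the Nr1d2 window a RORE half-site, and the Arntl window held none of these letters. Of the members not printed, Nr1d1 held an E′-box, Per3 a pair of D-boxes and Dbp none. Per1 has 2 listed start sites, the first with an E-box, a RORE half-site and a D-box and the second with none, and Clock has 3, of which the third held a RORE half-site and the others none. Arntl has 2, and neither held a match. The table had entries for all members but Per2. Bases after the start site or further upstream were not searched, so sites lying there would be missed. A match is a description of the letters, and binding was not measured.

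Library totals ran from 18366289 to 23221473 estimated counts, with a median of 22177562. Each cell type carried its own defining markers, with a summed level over 6 markers of 7892 to 8581 CPM (the count relative to the scaled library total) in adipocyte controls, 16630 to 16810 CPM in macrophage controls, 18970 to 23310 CPM in myotube controls and 34470 to 36300 CPM in hepatocyte controls. The 4 fibroblast markers summed to 3882 to 4416 CPM in adipocyte controls and 1375 to 1460 CPM in macrophage controls. In myotube and hepatocyte controls they summed to 776.9 to 930.6 CPM and 14.72 to 17.55 CPM. Adipocyte controls also held 281.6 to 335.4 CPM of the 6 macrophage markers. Of the adipocyte markers, Fabp4 averaged 5866 CPM and Lep 0.97 CPM there. Markers of other cells moved with butyrate in each cell type. In myotubes the 6 hepatocyte markers, at 0 to 0.0440 CPM in the myotube controls, summed to 29.2, 526.8 and 120.6 CPM in the butyrate libraries, or 0.0831%, 1.50% and 0.343% of their level in hepatocyte controls, and to 22.6 CPM in βOHB replicate 3. The 6 macrophage markers ran from 107.8 to 267.6 CPM in myotube controls, 47.1 to 106.9 CPM with βOHB and 27.5 to 76.3 CPM with butyrate. Without butyrate replicate 2, the library with most hepatocyte transcripts, 7 clock genes were called in myotubes, as with it. In macrophages the 6 myotube markers summed to 5.93 to 12.2 CPM in controls and 18.3 to 51.7 CPM with butyrate (6 of 6 higher), and the 3 proliferation markers to 1305 to 1342 CPM and 508 to 606.4 CPM (3 of 3 lower). The 3 endothelial markers summed to 61.0 to 68.4 CPM in hepatocyte controls and 19.2 to 22.5 CPM with butyrate (3 of 3 lower), and to 167 to 192 CPM and 108.6 to 127.5 CPM in adipocytes (2 of 3 lower). Markers of the cells themselves fell with butyrate too, 4 of 6 in adipocytes (summed to 6244 to 7610 CPM), 3 of 6 in macrophages (10370 to 10910 CPM) and 4 of 6 in myotubes (11520 to 16130 CPM). In hepatocytes 1 of 6 was lower and 1 higher, and the sum was 39040 to 41310 CPM. The part of these changes in the results was not tested.

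In control cells the levels of the clock genes differed between the 4 cell types, as did those of most genes. The cell types were also treated in different media. Adipocytes and macrophages were in DMEM with fetal calf serum, myotubes in Ham's F-10 with horse serum and hepatocytes in Williams E medium. Except between adipocytes and macrophages, effects of medium and cell type cannot be told apart. Per kilobase of exon, Nr1d1 was the most abundant member in adipocytes (20.0 CPM per kb), Nr1d2 in macrophages (14.1) and in myotubes (13.9), and Cry1 in hepatocytes (9.93), just above Nr1d2 (9.68). The least abundant was Per2 in adipocytes (0.877 CPM per kb) and macrophages (0.437), Per3 in myotubes (0.925) and Dbp in hepatocytes (0.642). All 10 members differed over the 4 cell types (edgeR quasi-likelihood F test, adjusted p below 0.05 over 15340 genes), as did 98.5% of all genes tested. Of 60 gene and pair comparisons of control levels, 52 passed the test, against 81.3% over all genes.

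Dbp spread most. Its control libraries read 12.5, 20.3 and 19.8 CPM in adipocytes, 7.63, 6.55 and 7.01 CPM in macrophages, 8.12, 7.35 and 9.11 CPM in myotubes and 2.13, 2.09 and 1.54 CPM in hepatocytes. Adipocytes were highest and hepatocytes lowest, with no overlap of either with another cell type, whereas no difference passed between macrophages and myotubes (adjusted p = 0.194). Per2 was ordered differently, with 17.7, 20.8 and 18.9 CPM in hepatocytes, 8.16, 8.94 and 9.68 CPM in myotubes, 5.37, 5.39 and 4.64 CPM in adipocytes and 3.01, 2.47 and 2.21 CPM in macrophages, and every neighbouring pair in that order differed. Nr1d1 was highest in adipocytes at 61.6 ± 3.68 CPM (SD, n = 3) and then in myotubes at 30.4 ± 3.23 CPM, and lowest in hepatocytes at 10.6 ± 0.988 CPM. Cry1 and Cry2 were highest in hepatocytes (33.2 ± 2.44 CPM and 34.1 ± 2.06 CPM) and lowest in macrophages (9.06 ± 0.821 CPM and 6.98 ± 0.797 CPM), and for neither did a difference between adipocytes and myotubes pass (adjusted p = 0.136 and 0.257). Nr1d2 was the most even, its highest mean control level, in macrophages, being 1.46-fold its lowest, in hepatocytes.

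Clock itself was highest in adipocyte controls and lowest in hepatocyte controls, at 118 ± 1.32 CPM and 65.0 ± 4.41 CPM. Arntl, its partner, was highest in hepatocytes (26.7 ± 0.989 CPM) and lowest in macrophages (12.9 ± 0.845 CPM). Per1 was likewise highest in hepatocytes (32.4 ± 4.62 CPM) but lowest in adipocytes (15.5 ± 1.64 CPM), where no difference from myotubes passed (18.0 ± 1.17 CPM, adjusted p = 0.0774). Per3 was highest in adipocytes (18.7 ± 5.18 CPM), and the other 3 cell types, at 7.80 to 9.42 CPM, showed no difference that passed (adjusted p from 0.0844 to 0.583).

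**Figure D1:**
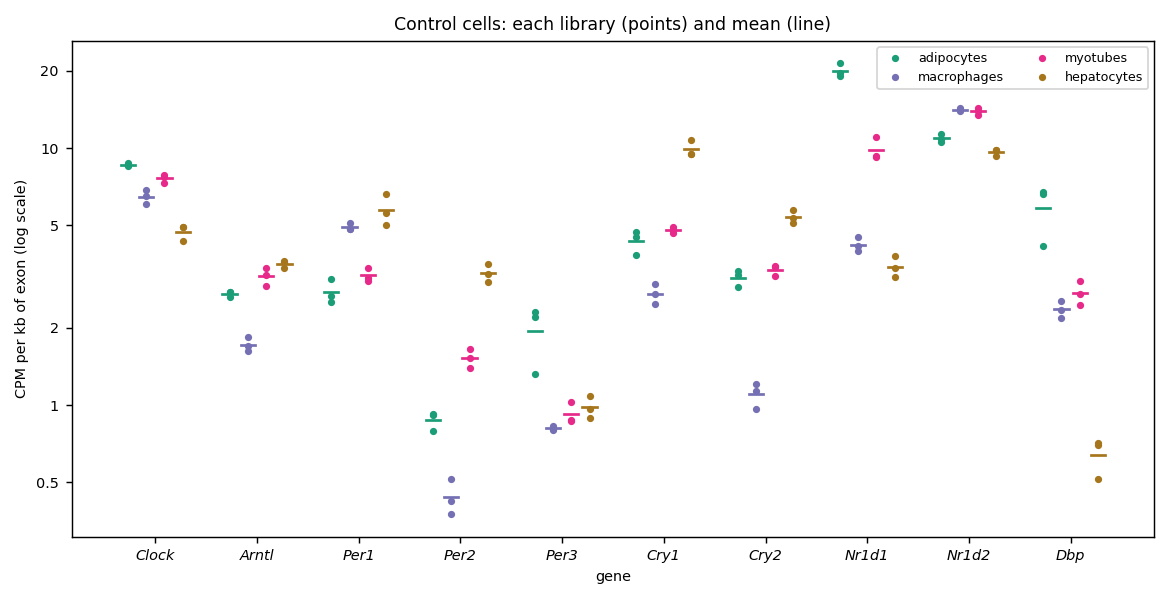
Levels of the 10 clock genes in control cells, in CPM per kilobase of exon on a log axis, with a point for each of the 3 libraries and a line at the mean. Nr1d1 and Dbp are highest in adipocytes, Per2, Cry1 and Cry2 in hepatocytes, and Nr1d2 varies least.

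Butyrate changed most clock genes in every cell type, as it did most of all genes tested. In adipocytes 9 of 10 members passed the test (5 higher, 4 lower), in macrophages 7 (3 higher, 4 lower), in myotubes 7 (2 higher, 5 lower) and in hepatocytes 8 (6 higher, 2 lower). The shares over all genes tested were 61% in adipocytes (30.7% higher, 30.3% lower), 65% in macrophages (31.9% higher, 33.2% lower), 66.5% in myotubes (33.1% higher, 33.4% lower) and 63.5% in hepatocytes (31% higher, 32.4% lower), so that 31 of 40 gene and cell type comparisons of the clock genes passed, beside 64% of those over all genes. The median size of the members' log2 fold changes, regardless of sign, was 0.77 in adipocytes, 0.64 in macrophages, 0.72 in myotubes and 0.51 in hepatocytes, and over all genes 0.42, 0.49, 0.45 and 0.54. Arntl and Cry2 rose in all 4 cell types, as did 12.5% of all genes, and Nr1d2 fell in all 4, as did 12.7%. Clock, Per2 and Nr1d1 rose in 1 cell type and fell in 2 others, and 19.3% of all genes had calls in both directions.

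Arntl was the member raised most in each cell type except hepatocytes, where Cry2 was. Its libraries read 25.8, 21.8 and 24.1 CPM in myotube controls and 69.9, 69.4 and 75.4 CPM with butyrate, 20.7, 20.8 and 19.8 CPM and 51.0, 56.6 and 51.2 CPM in adipocytes, 12.8, 13.9 and 12.2 CPM and 28.6, 29.2 and 25.6 CPM in macrophages, and 25.6, 27.4 and 27.1 CPM and 55.8, 54.5 and 54.6 CPM in hepatocytes. In each cell type all 3 butyrate libraries lay above all 3 controls. The rise was 2.99-fold in myotubes (log2 fold change 1.58, SE 0.069, adjusted p = 6.11e-18), 2.60-fold in adipocytes (log2 fold change 1.38, SE 0.070, adjusted p = 1.69e-16), 2.15-fold in macrophages (log2 fold change 1.11, SE 0.075, adjusted p = 6.5e-14) and 2.06-fold in hepatocytes (log2 fold change 1.04, SE 0.070, adjusted p = 5.97e-14). Arntl encodes the partner with which CLOCK binds DNA.

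Clock, which encodes the other subunit, moved less and not in 1 direction. Hepatocytes read 59.9, 67.5 and 67.5 CPM in controls and 97.3, 100.4 and 91.6 CPM with butyrate, without overlap, a 1.48-fold rise (log2 fold change 0.57, SE 0.081, adjusted p = 3.42e-07). Adipocytes went the other way, from 119.7, 118 and 117 CPM to 95.2, 96.1 and 96.3 CPM (log2 fold change -0.30, SE 0.078, adjusted p = 0.00129), and so did macrophages, from 94.6, 82.8 and 89.5 CPM to 68.7, 71.6 and 62.7 CPM (log2 fold change -0.40, SE 0.080, adjusted p = 6.85e-05). In myotubes the libraries overlapped (106, 100 and 108 CPM against 117, 114 and 100.3 CPM), with a log2 difference of 0.077 (95% confidence interval -0.083 to 0.24). With library totals in place of scaling factors the macrophage difference no longer passed (log2 fold change -0.17, adjusted p = 0.074) and the myotube one did (0.21, adjusted p = 0.0252).

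The Per genes, which encode the repressors that accumulate with the CRY proteins, divided by cell type. Per2 in myotubes had the largest change of any member, from 8.16, 8.94 and 9.68 CPM in controls to 2.52, 2.27 and 2.19 CPM with butyrate. All 3 butyrate libraries lay below all 3 controls, and the fall was 3.83-fold (log2 fold change -1.94, SE 0.15, adjusted p = 4.09e-12). Macrophages fell from 3.01, 2.47 and 2.21 CPM to 1.43, 1.72 and 0.930 CPM, again without overlap (log2 fold change -0.91, SE 0.20, adjusted p = 0.000205). In adipocytes Per2 rose instead, from 5.37, 5.39 and 4.64 CPM to 7.25, 6.02 and 7.90 CPM (log2 fold change 0.46, SE 0.14, adjusted p = 0.00646). Hepatocytes, which had the most Per2, read 17.7, 20.8 and 18.9 CPM and 17.5, 18.1 and 14.8 CPM, which overlapped (log2 difference -0.19, 95% interval -0.44 to 0.066).

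Per1, an immediate-early member that responds to glucocorticoids and cyclic AMP, rose 2.04-fold in adipocytes, from 15.0, 17.4 and 14.2 CPM to 32.0, 27.1 and 35.9 CPM (log2 fold change 1.03, SE 0.11, adjusted p = 1.16e-09), and 1.60-fold in hepatocytes, from 28.4, 37.5 and 31.5 CPM to 54.1, 52.2 and 49.8 CPM (log2 fold change 0.68, SE 0.10, adjusted p = 8.67e-07). Every butyrate library was above every control in both. In macrophages the log2 difference was -0.13 (95% interval -0.34 to 0.086) and in myotubes -0.12 (-0.35 to 0.10), and neither passed the test. Per3, the member least needed for rhythm, fell 1.59-fold in myotubes, from 8.39, 8.37 and 9.90 CPM to 5.78, 5.30 and 5.68 CPM (log2 fold change -0.67, SE 0.15, adjusted p = 0.000193). In hepatocytes it fell from 8.59, 10.4 and 9.28 CPM to 6.57, 7.98 and 6.61 CPM (log2 fold change -0.41, SE 0.15, adjusted p = 0.0174), a call that was lost without control replicate 2, butyrate replicate 1 or butyrate replicate 3 and with limma-voom (adjusted p = 0.0855, 0.0663, 0.0592 and 0.0699).

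In adipocytes Per3 depended on 1 control library. The controls read 12.7, 21.1 and 22.2 CPM and the butyrate libraries 16.5, 16.0 and 15.9 CPM, so that control replicate 1 lay below all 3 butyrate libraries and the other two above. The difference did not pass (log2 fold change -0.21, SE 0.13, adjusted p = 0.141), and without control replicate 1 it did (log2 fold change -0.43, adjusted p = 0.000324). In macrophages Per3 read 7.97, 7.76 and 7.66 CPM and 9.74, 9.24 and 8.37 CPM (log2 difference 0.23, 95% interval -0.062 to 0.51), without overlap but short of the threshold (adjusted p = 0.163). It passed with library totals (log2 fold change 0.45, adjusted p = 0.00612) and in a fit of the macrophage libraries alone (0.26, adjusted p = 0.0169).

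The cryptochromes, the stronger repressors of CLOCK and ARNTL, rose wherever they passed the test. Cry2 hepatocyte libraries read 33.9, 36.3 and 32.2 CPM in controls and 76.1, 75.4 and 63.5 CPM with butyrate, a 2.10-fold rise (log2 fold change 1.07, SE 0.078, adjusted p = 2.88e-13). Adipocytes were close behind, with 18.1, 21.0 and 20.3 CPM and 39.3, 39.7 and 41.5 CPM (2.03-fold, log2 fold change 1.02, SE 0.080, adjusted p = 2.37e-12), as were macrophages, with 6.10, 7.66 and 7.18 CPM and 12.9, 14.3 and 12.5 CPM (1.91-fold, log2 fold change 0.93, SE 0.095, adjusted p = 6.11e-10). Myotubes moved least, from 21.9, 21.8 and 20.1 CPM to 29.7, 31.7 and 29.5 CPM (1.43-fold, log2 fold change 0.51, SE 0.080, adjusted p = 1.88e-06), and in none of the 4 cell types did the groups overlap. Cry2 shares 295 exonic bases (4.7% of its exons) with a noncoding transcript on the opposite strand, and whether counting used strand was not stated.

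Cry1 rose most in macrophages, from 8.27, 9.02 and 9.90 CPM to 15.9, 16.1 and 16.9 CPM (1.80-fold, log2 fold change 0.84, SE 0.089, adjusted p = 1.27e-09). In adipocytes it went from 12.9, 15.1 and 15.8 CPM to 20.5, 20.7 and 21.1 CPM (1.42-fold, log2 fold change 0.51, SE 0.084, adjusted p = 4.3e-06), and in hepatocytes from 31.8, 36.0 and 31.7 CPM to 44.2, 48.5 and 43.5 CPM (1.37-fold, log2 fold change 0.46, SE 0.078, adjusted p = 7.56e-06). Butyrate libraries were above all controls in these 3 cell types. Myotube libraries read 16.0, 15.6 and 16.5 CPM and 19.5, 18.1 and 16.4 CPM, with the lowest butyrate library inside the control range. That difference was 0.17 on the log2 scale (adjusted p = 0.0833), and it passed with DESeq2 (adjusted p = 0.048), with its size factors in edgeR (0.0414), with library totals (0.00303) and without butyrate replicate 3 (0.0268).

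Nr1d2, which encodes REV-ERBβ, a repressor of Arntl, fell in all 4 cell types, by 2.36-fold to 2.81-fold. Adipocytes went from 61.2, 56.9 and 58.9 CPM to 22.4, 20.0 and 20.5 CPM, macrophages from 77.3, 76.2 and 75.5 CPM to 33.0, 33.1 and 30.8 CPM, myotubes from 72.6, 75.7 and 77.4 CPM to 31.9, 31.6 and 27.3 CPM, and hepatocytes from 53.2, 50.5 and 53.3 CPM to 20.8, 25.5 and 19.3 CPM. All 3 butyrate libraries lay below all 3 controls in each. The fall was 2.81-fold in adipocytes (log2 fold change -1.49, SE 0.085, adjusted p = 2.03e-15), 2.36-fold in macrophages (log2 fold change -1.24, SE 0.081, adjusted p = 3.52e-14), 2.48-fold in myotubes (log2 fold change -1.31, SE 0.082, adjusted p = 1.78e-14) and 2.38-fold in hepatocytes (log2 fold change -1.25, SE 0.087, adjusted p = 1.13e-13).

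Its paralog Nr1d1, encoding REV-ERBα, moved in different directions. In myotubes it fell 1.71-fold, from 28.3, 28.7 and 34.1 CPM to 16.8, 16.5 and 20.2 CPM (log2 fold change -0.77, SE 0.11, adjusted p = 2.89e-07). In hepatocytes it rose 1.30-fold, from 11.7, 10.5 and 9.70 CPM to 13.7, 14.2 and 13.4 CPM (log2 fold change 0.38, SE 0.13, adjusted p = 0.0108), and without control replicate 3 the adjusted p was 0.0597. Adipocyte libraries overlapped, at 65.8, 58.9 and 60.1 CPM and 49.8, 45.1 and 60.0 CPM, and the lower level passed the test (log2 fold change -0.26, SE 0.099, adjusted p = 0.0263) but not without control replicate 1, butyrate replicate 1 or butyrate replicate 2 (log2 fold change -0.21, -0.23 and -0.16, adjusted p = 0.111, 0.081 and 0.218). Nor did it pass with library totals (log2 fold change -0.17, adjusted p = 0.145) or in a fit of the adipocyte libraries alone (-0.25, adjusted p = 0.0683). Macrophages did not pass (log2 difference -0.097, 95% interval -0.34 to 0.15). Nr1d1 shares 263 exonic bases (8.5%) with Thra on the opposite strand, and Thra itself was higher with butyrate in all 4 cell types, by 0.55 in adipocytes, 1.42 in macrophages, 0.75 in myotubes and 1.197 in hepatocytes on the log2 scale. The part of Thra reads in the Nr1d1 counts was not tested.

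Dbp, a direct target of CLOCK and ARNTL, fell in 3 cell types while Arntl rose in them. Myotube libraries went from 8.12, 7.35 and 9.11 CPM to 2.32, 2.47 and 2.64 CPM, a 3.31-fold fall (log2 fold change -1.73, SE 0.17, adjusted p = 3.7e-10), and adipocyte libraries from 12.5, 20.3 and 19.8 CPM to 7.94, 8.49 and 8.08 CPM (2.15-fold, log2 fold change -1.10, SE 0.14, adjusted p = 5.87e-08). Neither pair of groups overlapped, although adipocyte control replicate 1 was well below the other two. Macrophages read 7.63, 6.55 and 7.01 CPM and 5.35, 4.37 and 6.00 CPM (log2 fold change -0.44, SE 0.16, adjusted p = 0.0157), and this call was lost without control replicate 1 (adjusted p = 0.067), without butyrate replicate 2 (0.134) or with library totals (log2 fold change -0.21, adjusted p = 0.244). Hepatocytes, with the least Dbp, read 2.13, 2.09 and 1.54 CPM and 2.44, 2.13 and 1.62 CPM, a log2 difference of 0.12 with a 95% interval of -0.37 to 0.60. Dbp shares 539 exonic bases (18%) with Sphk2 on the opposite strand, whose own log2 difference was 0.20 in adipocytes, -0.97 in macrophages, -0.12 in myotubes and 0.093 in hepatocytes, and the part of Sphk2 reads in the Dbp counts was not tested.

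**Figure D2:**
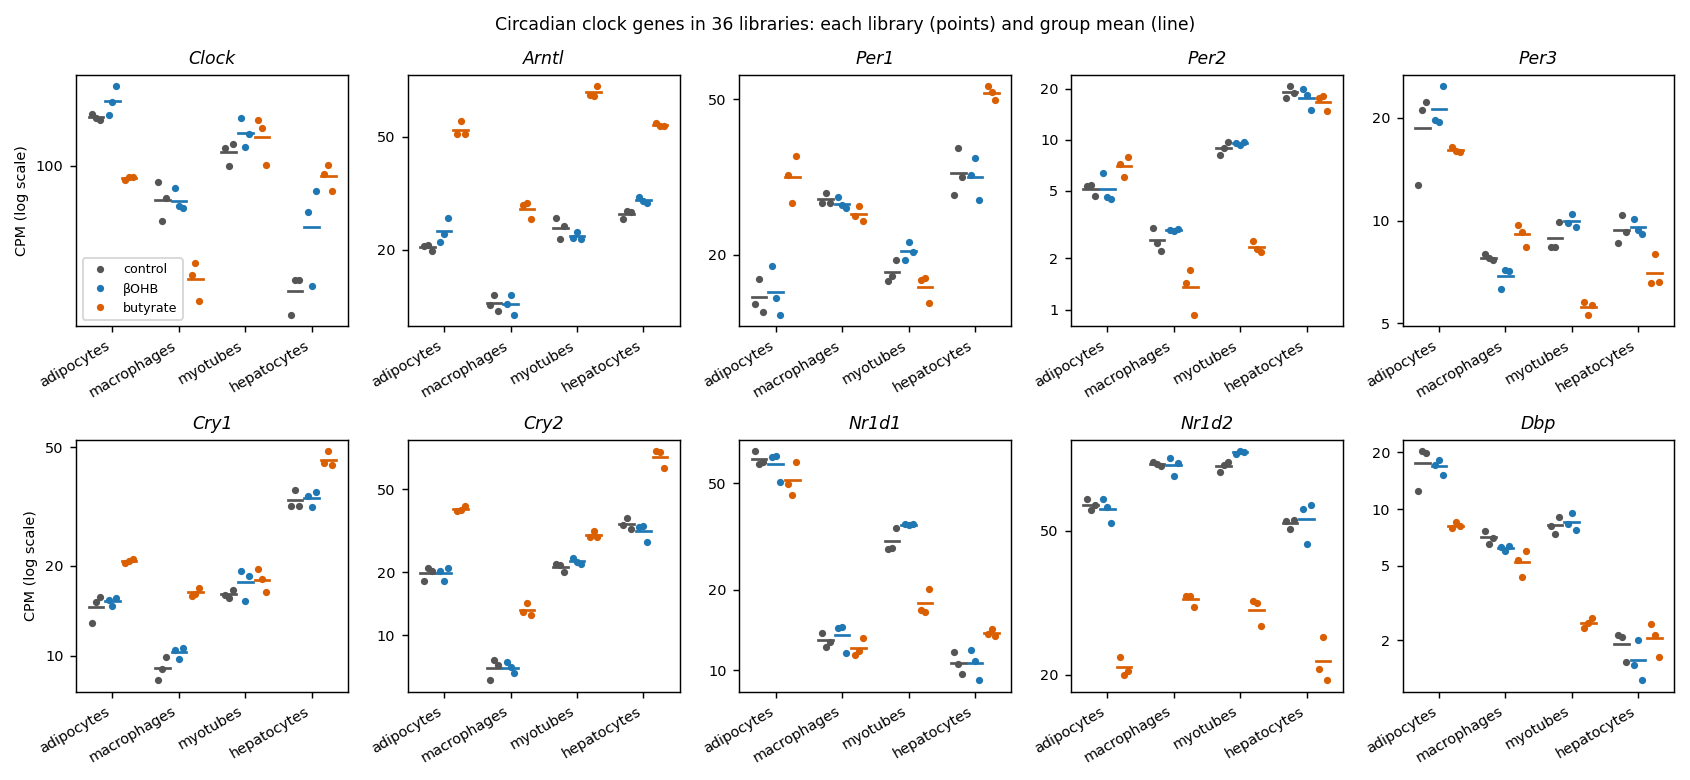
CPM of each clock gene in the 36 libraries on log axes, grouped by cell type and treatment, with points for libraries and lines for the means of 3. Arntl and Cry2 with butyrate lie above control in all 4 cell types and Nr1d2 lies below, while the βOHB points lie near their controls.

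In myotubes 5 of 6 macrophage markers, 3 of 3 proliferation markers and 4 of 6 myotube markers fell with butyrate. The other macrophage marker (Mertk), all 6 hepatocyte markers, 1 of 6 adipocyte markers, 2 of 4 fibroblast markers and 1 of 3 endothelial markers were higher. Those values moved with the clock genes, and their part in the results was not tested. Without butyrate replicate 2 the log2 fold changes in myotubes were 1.60 for Arntl, -1.92 for Per2, -1.34 for Nr1d2 and -1.73 for Dbp.

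Whether the response to butyrate differed between cell types was tested directly. It did for 9 of 10 members over the 4 cell types (F test, adjusted p below 0.05), against 74.5% of all genes, and Nr1d2 did not pass (adjusted p = 0.176). Of 60 gene and pair comparisons of the response, 39 passed, against 41.9% over all genes, and at an unadjusted p below 0.001 the count was 24, against 26.6%. Per2 differed most: its response in adipocytes exceeded that in myotubes by 2.39 (adjusted p = 2.39e-10) on the log2 scale, and the myotubes minus hepatocytes difference was -1.75 (adjusted p = 1.79e-08). Dbp followed, the myotube response being lower than the hepatocyte one, with a log2 difference of -1.84 (adjusted p = 5.37e-06). For Arntl the myotube response was the largest, above hepatocytes by 0.54 (adjusted p = 3.42e-05) while its difference from adipocytes did not pass, with adipocytes minus myotubes at -0.21 (adjusted p = 0.0995). For Clock the hepatocyte response stood above each of the other 3, with macrophages minus hepatocytes at -0.97 (adjusted p = 3.49e-08).

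**Figure D3:**
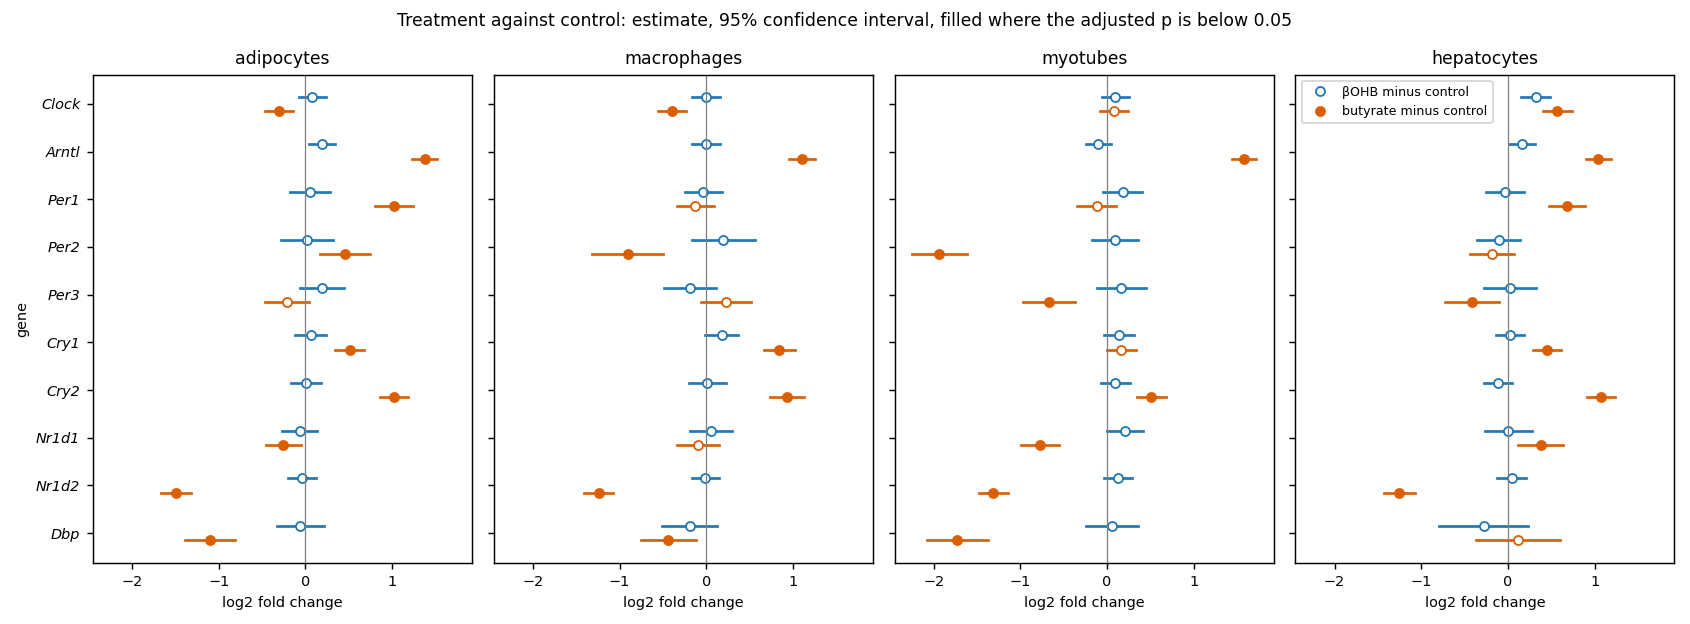
Log2 fold changes of the 10 clock genes against control with butyrate and with βOHB in the 4 cell types, as points with 95% confidence intervals, filled where the adjusted p was below 0.05. The butyrate points spread from -1.94 for Per2 to 1.58 for Arntl, both in myotubes, and no βOHB point is filled.

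βOHB at the same dose and time passed the test for 0 of 10 clock genes in each cell type with edgeR. Over all genes it did so for 0.00652% in adipocytes, 0% in macrophages, 2.91% in myotubes and 0.00652% in hepatocytes, and limma-voom and DESeq2 also called 0 members. At an unadjusted p below 0.05 there was 1 member in adipocytes (Arntl) and 2 in hepatocytes (Clock and Arntl), and 0 in macrophages and myotubes, against 7.15%, 5.51%, 2.33% and 13.7% of all genes in that order. The members' log2 differences ran from -0.068 to 0.19 in adipocytes, -0.19 to 0.20 in macrophages, -0.10 to 0.21 in myotubes, and -0.28 to 0.32 in hepatocytes. Their 95% intervals reached at most from -0.33 to 0.44, -0.51 to 0.56, -0.25 to 0.45 and -0.79 to 0.48 in that order. A difference of the βOHB response between cell types passed the F test for 0 of 10 members, and for 0.978% of all genes.

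The largest βOHB difference was that of Clock in hepatocytes, the only member there with an unadjusted p below 0.001, as 0.163% of all genes had. The libraries read 59.9, 67.5 and 67.5 CPM in controls and 85.3, 66.2 and 91.7 CPM with βOHB, so that replicate 2 lay within the controls and the other two above them (log2 fold change 0.32, 95% interval 0.15 to 0.48, unadjusted p = 0.000508, adjusted p = 0.545). It passed without βOHB replicate 2 (log2 fold change 0.45, adjusted p = 0.0124) and with no filter on low counts (adjusted p = 0.0438). Arntl was 30.8, 29.6 and 29.3 CPM in the same cells and 21.3, 22.6 and 25.9 CPM in adipocytes with βOHB, all above their controls, by 0.16 and 0.19 on the log2 scale (adjusted p = 0.868 and 0.618). In macrophages Per3 and Dbp were below all controls, and in myotubes Per1, Cry2, Nr1d1 and Nr1d2 were above all controls. The members without overlap were thus 1 in adipocytes, 2 in macrophages, 4 in myotubes and 1 in hepatocytes, beside 12.7%, 11.1%, 22.9% and 6.71% of all genes. In myotubes 9 of 10 members, all but Arntl, had a log2 difference above 0, as did 57.1% of all genes, with a median of 0.11 over the members and 0.023 over all genes. With library totals the median over all genes was -0.035 and Dbp too was below 0. Nr1d1 had the largest difference there, 35.1, 34.8 and 35.2 CPM with βOHB against 28.3, 28.7 and 34.1 CPM (log2 fold change 0.21, adjusted p = 0.387), beside macrophage markers of which 5 of 6 fell and proliferation markers of which 2 of 3 did, whose part was not tested.

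Set against each other, butyrate and βOHB, which differ by 1 hydroxyl group, gave different levels for 9 members in adipocytes, 7 in macrophages, 8 in myotubes and 8 in hepatocytes, with p-values adjusted over all 15340 genes and 40 member comparisons made. The shares over all genes were 59.5%, 64.7%, 66% and 63.5%. At an unadjusted p below 0.001 the hepatocyte count was 5, against 49.2% of all genes. These comparisons share their butyrate libraries with those against control, and the βOHB comparisons share the controls, so the values are given side by side only. Arntl was 3.21-fold higher with butyrate than with βOHB in myotubes (log2 fold change 1.68, SE 0.069, adjusted p = 1.82e-18) and 1.84-fold higher in hepatocytes (log2 fold change 0.88, SE 0.069, adjusted p = 2.05e-12). Per1 in myotubes passed against βOHB (17.2, 17.4 and 15.0 CPM with butyrate, 19.4, 21.5 and 20.3 CPM with βOHB, log2 fold change -0.30, SE 0.11, adjusted p = 0.0162) and Per3 did in adipocytes (log2 fold change -0.41, SE 0.12, adjusted p = 0.00597) and macrophages (log2 fold change 0.41, SE 0.14, adjusted p = 0.0135). No difference between the compounds passed for Per2 and Dbp in hepatocytes (95% intervals -0.33 to 0.17 and -0.094 to 0.89), for Clock and Cry1 in myotubes (-0.18 to 0.14 and -0.14 to 0.20), for Per1, Nr1d1 and Dbp in macrophages (-0.30 to 0.12, -0.40 to 0.088 and -0.57 to 0.077), or for Nr1d1 in adipocytes (-0.39 to 0.015).

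The wider pathway was read from 23 other clock genes, all of which were tested. With butyrate 11 rose and 6 fell in adipocytes, 11 rose and 8 fell in macrophages, 9 rose and 8 fell in myotubes, and 11 rose and 4 fell in hepatocytes, which is 73.9%, 82.6%, 73.9% and 65.2% of the list beside the shares over all genes given above. The rises include Rorb, whose means were near 0 in macrophages (0.031 CPM in controls, 0.36 CPM with butyrate) and hepatocytes (0 and 0.18 CPM). βOHB passed for 0 of 23 in each cell type. Named by smallest p, Hlf, a D-box activator of the family of Dbp, rose in each cell type, in adipocytes from 3.22 to 29.8 CPM (log2 fold change 3.21), in macrophages from 0.253 to 2.65 CPM (log2 fold change 3.35), in myotubes from 0.328 to 2.14 CPM (log2 fold change 2.69) and in hepatocytes from 10.4 to 52.5 CPM (log2 fold change 2.33). Tef, the third member of that family, fell in adipocytes from 82.9 to 62.7 CPM (log2 fold change -0.40), in hepatocytes from 75.6 to 51.9 CPM (log2 fold change -0.54) and in myotubes (log2 fold change -0.30). In macrophage and myotube controls Hlf was near 0.

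Csnk1d, a kinase that marks PER proteins for degradation, fell in all 4 cell types: in adipocytes from 132 to 96.6 CPM (log2 fold change -0.45), in macrophages from 136 to 93.1 CPM (log2 fold change -0.55), in myotubes from 105 to 75.4 CPM (log2 fold change -0.47) and in hepatocytes from 162 to 80.5 CPM (log2 fold change -1.01). Csnk1a1, a related kinase, fell in macrophages from 243 to 171 CPM (log2 fold change -0.51), in myotubes from 459 to 315 CPM (log2 fold change -0.54) and in adipocytes (log2 fold change -0.25). Hdac3, the deacetylase that the REV-ERBs recruit, rose in adipocytes from 51.2 to 77.2 CPM (log2 fold change 0.59), in macrophages from 49.0 to 78.3 CPM (log2 fold change 0.68), in hepatocytes from 74.7 to 119 CPM (log2 fold change 0.67) and in myotubes (log2 fold change 0.18). Usp2, a protease that removes ubiquitin, rose in adipocytes from 8.15 to 22.6 CPM (log2 fold change 1.47), in hepatocytes from 2.28 to 14.5 CPM (log2 fold change 2.67) and in macrophages (log2 fold change 0.70), and fell in myotubes from 64.9 to 52.1 CPM (log2 fold change -0.32). Fbxl21, a CRY ubiquitin ligase, rose in macrophages from 0.604 to 4.30 CPM (log2 fold change 2.83), in myotubes from 1.64 to 9.01 CPM (log2 fold change 2.46), in adipocytes (log2 fold change 2.78) and in hepatocytes (1.45).

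The E-box repressors did not move together. Bhlhe40 fell in adipocytes from 129 to 92.9 CPM (log2 fold change -0.47), in hepatocytes from 361 to 212 CPM (log2 fold change -0.77) and in myotubes (log2 fold change -0.19). Bhlhe41 fell in macrophages from 165 to 87.1 CPM (log2 fold change -0.92) and in myotubes (log2 fold change -0.72), and rose in hepatocytes from 2.98 to 12.4 CPM (log2 fold change 2.07). Ciart, which silences CLOCK and ARNTL, fell in myotubes from 1.93 to 0.403 CPM (log2 fold change -2.24), the cell type in which Per2 and Dbp also fell most, and rose in adipocytes from 1.13 to 2.14 CPM (log2 fold change 0.92), in macrophages from 1.53 to 3.10 CPM (log2 fold change 1.01) and in hepatocytes from 2.10 to 4.25 CPM (log2 fold change 1.02). Nampt, the rate-limiting enzyme of NAD salvage, rose in myotubes from 27.6 to 46.1 CPM (log2 fold change 0.74) and fell in macrophages from 207 to 164 CPM (log2 fold change -0.34) and in adipocytes from 278 to 250.3 CPM (log2 fold change -0.15). The adjusted p-values of these rises and falls were at most 0.0488 (edgeR quasi-likelihood test), and the butyrate and control libraries overlapped in none of them but that of Nampt in adipocytes.

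**Figure D4:**
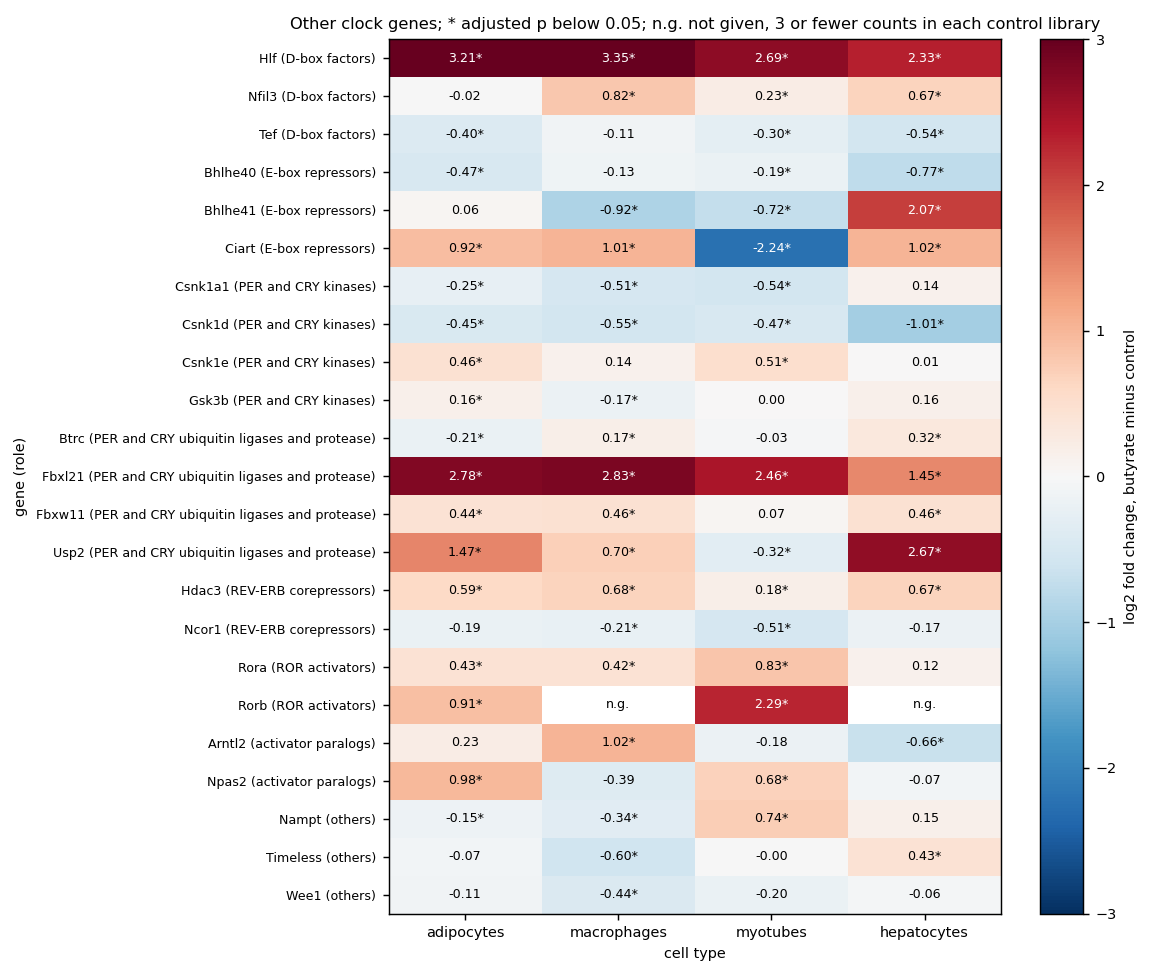
Log2 fold changes with butyrate of the 23 other clock genes (rows, with their roles) in the 4 cell types (columns), starred where the adjusted p was below 0.05. Hlf and Fbxl21 are higher and Csnk1d is lower in all 4, and no fold is given for Rorb in macrophages and hepatocytes, whose controls had 3 counts or fewer in each library.

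Like patterns were sought among the 15340 genes tested, leaving out the members and genes without a symbol. The pattern over the 12 group means nearest to Arntl was that of Rita1 (r = 0.977), to Nr1d2 that of E4f1 (r = 0.994), to Cry2 that of Trim2 (r = 0.977), to Cry1 that of D17Wsu92e (r = 0.985) and to Nr1d1 that of Ptgr2 (r = 0.981). For Dbp it was Fndc3b (r = 0.963), for Per2 Gm13464 (r = 0.964), for Per1 Dynlt1b (r = 0.940), for Clock Ddx3y (r = 0.934) and for Per3 Ssr3 (r = 0.930). The group means share the cell types and treatments. Over the 36 libraries, each taken as its deviation from its group mean, the nearest genes were others, for example Slk (r = 0.884) for Clock and Rab5a (r = 0.782) for Nr1d2. Between members, Pearson's r over the 12 group means was highest for Cry1 with Cry2 (0.895) and lowest for Arntl with Nr1d2 (-0.855), and over the 36 deviations it was 0.305 and -0.311 for these pairs. These values are descriptions over groups and libraries that share their source.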

How the data were processed

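RNA was sequenced in 36 libraries of 4 primary mouse cell types, and the authors deposited estimated counts per gene, made with Salmon 1.2.1 on GRCm38.p6 transcripts and summed per gene with scaling for transcript length and library size. The counts were rounded here. Strand use in counting is not given in the sources used here. Depth was 18366289 to 23221473 counts per library, which limits precision for the lowest members.

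Genes above 1 CPM in at least 6 of 36 libraries (15340 genes) entered edgeR 4.0.16, run in R 4.3.3 (TMM factors, 1 quasi-likelihood model over the 12 groups, Benjamini-Hochberg adjustment over all genes, calls at 0.05). CPM values use TMM-scaled totals. An exact permutation test of 3 against 3 libraries gives at best p = 0.1 and was therefore not used. Symbols and exon lengths came from GENCODE annotation of GRCm38, in which 54094 of 54347 genes were found, and upstream sequences from RefSeq. The tests were checked on simulated counts. No 2 libraries of a group agreed within counting noise (chi-square per degree of freedom from 2.68 to 41.7). The highest values, 37.0 and 41.7, were those of myotube butyrate replicate 3 against replicates 1 and 2. Between replicates 1 and 2 the value was 8.575.

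The members and lists were chosen with earlier results of these data known. All 10 members are named. Of the 23 other clock genes (2 further genes of that list are not reported here), the 3 raised and the 3 lowered of smallest p among those called in each butyrate comparison are named, with any called under βOHB, and for likeness the gene with the highest Pearson's r to each member. Alternatives were limma-voom (limma 3.58.1), DESeq2 1.42.0, its size factors, library totals, no filter, a filter of more than 20 counts, the replicate number as a block, each cell type alone, a prior count of 0.5 in place of 2 for log2 levels, a threshold of unadjusted p below 0.001, and leaving out each library.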

Additional observations from a re-analysis of the deposited data

Results flagged for a closer look

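The response to butyrate differed over the 4 cell types, by the F test of the interaction, for 9 clock genes. The adjusted p was 3.12e-08 for Clock, 4.39e-05 for Arntl, 3.07e-08 for Per1, 3.1e-10 for Per2, 0.00202 for Per3, 2e-04 for Cry1, 0.00021 for Cry2, 6.68e-06 for Nr1d1 and 4.08e-06 for Dbp. The range of the log2 fold change over the cell types was 2.39 for Per2, 1.84 for Dbp, 1.15 for Per1, 1.15 for Nr1d1, 0.97 for Clock, 0.90 for Per3, 0.68 for Cry1, 0.56 for Cry2 and 0.54 for Arntl, beside 0.25 for Nr1d2. Hepatocyte markers, which lie outside the clock genes, were above the myotube controls in 4 treated myotube libraries, at 29.2, 526.8 and 120.6 CPM in butyrate replicates 1, 2 and 3 and 22.6 CPM in βOHB replicate 3.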

How the results depend on the processing

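No called butyrate effect of a member changed sign under any alternative run, and 5 of the 31 lost the call at an adjusted p of 0.05 in some setting, as given with each gene. At an unadjusted p below 0.001 Per2 in adipocytes (edgeR adjusted p = 0.00646) was not called, nor were 4 of those 5. Of 314 recomputed counts of calls 308 stayed within 1.5 times the main count. For βOHB in hepatocytes the count of 0 became 1 (Clock) with no filter on low counts, at an unadjusted p below 0.001 (0.163% of all genes), and without βOHB replicate 2, the range over libraries left out being 0 to 1, and without that replicate the count of members whose βOHB response differed between cell types also went from 0 to 1 (range 0 to 1). At an unadjusted p below 0.001 the butyrate against βOHB count in hepatocytes was 5 instead of 8 (all genes 49.2% instead of 63.5%), and gene and pair calls of the butyrate response were 24 instead of 39 (26.6% instead of 41.9%). Differences that had not been called changed sign in 52 of 686 recomputed values. Library totals in place of scaling factors moved the median over all genes of the butyrate log2 fold change by 0.20 in macrophages and 0.13 in myotubes, and moved 54 of 120 group means by more than 1 SD. The prior count of 0.5 moved 1 log2 level by more than its SD, Per2 in macrophages with βOHB. Whether the replicate numbers pair the libraries is not in the labels. Among 36 same-numbered pairs within cell types, 4 had a correlation above 0.1 (range -0.26 to 0.27). In all, 13 of 36 libraries correlated best with their own number, and these values cannot exclude a pairing. With the replicate number as a block 9, 7, 7 and 8 members were called with butyrate in adipocytes, macrophages, myotubes and hepatocytes, as without it, and no member's call changed.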
